A study of Mus musculus with 8 samples.

Results

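The 26S proteasome is the protease that degrades ubiquitin-tagged proteins in the cytosol and nucleus. The genes described here encode its subunits, its activators and inhibitor, and the chaperones that assemble it. They were taken by symbol: every protein-coding gene named Psma to Psmg followed by a digit, without the 3 interferon-inducible catalytic subunits Psmb8, Psmb9 and Psmb10, which are given for comparison. This gave 47 of the 45777 genes in the table. Of these, 46 have a known proteasome role. Psmc3ip, a recombination cofactor, fits the naming rule alone. Enough reads for a test were present for 46 of the 47, and the 1 left out was Psmb11.

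Polyadenylated RNA was sequenced from cells labelled as primary hepatic stellate cells. Stellate cells are the liver's vitamin A-storing pericytes, which become collagen-producing myofibroblasts when they activate. Markers of macrophages and endothelial cells were also present at high levels, as given below, so the values may not be those of stellate cells alone. The siPAK4 group held 4 libraries of cells transfected with siRNA against PAK4, a p21-activated kinase, and the siControl group held 4 libraries of cells given a control siRNA. All cells were from male wild-type C57BL/6 mice, and all 8 libraries carry the label of batch 1. The labels give no age, time in culture or siRNA sequence, and do not say whether replicates came from separate animals or cultures. The spread behind the p-values is therefore that of these libraries, and it may be technical. Total counts were 55728583 to 59205049 per siPAK4 library and 57297561 to 61535063 per siControl library.

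The catalytic core, the 20S particle, is a stack of rings. The outer alpha rings gate the entry pore, and the inner beta rings hold the proteolytic sites of Psmb5 (chymotrypsin-like), Psmb6 (caspase-like) and Psmb7 (trypsin-like). The 19S regulator caps the core with a ring of ATPases that unfold substrates, receptors that bind ubiquitin, and a lid that removes the ubiquitin chain. Interferons are known to induce a variant core, the immunoproteasome, in which Psmb8, Psmb9 and Psmb10 replace Psmb5, Psmb6 and Psmb7, together with the 11S activator made of Psme1 and Psme2. Nfe2l1 is a transcription factor known to raise many proteasome genes when proteasome activity is short.

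Promoter windows from RefSeq (GRCm38.p6, the build also called mm10), 250 bases before to 50 bases after the annotated start, were found for 39 of the 47 genes. The 4 windows printed here belong to the activator pair that changed most, to the ubiquitin receptor Psmd4, which also changed, and to the catalytic subunit Psmb5, which did not pass the test. Capitals mark a match to the interferon-stimulated response element (GAAA, any 2 bases, GAAA) in Psme1 and Psmd4 and to the antioxidant response core TGACNNNGC in Psmb5, each searched on both strands. The Psme2 window, the more upstream of its 2 listed ones, holds neither.
Psme1, chr14:55578244-55578543, plus strand: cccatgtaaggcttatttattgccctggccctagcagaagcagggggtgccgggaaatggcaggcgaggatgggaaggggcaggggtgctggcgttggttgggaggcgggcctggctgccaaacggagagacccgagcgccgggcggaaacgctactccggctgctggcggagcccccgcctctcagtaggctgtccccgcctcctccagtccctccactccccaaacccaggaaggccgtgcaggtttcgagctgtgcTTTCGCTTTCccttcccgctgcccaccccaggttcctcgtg
Psme2, chr14:55591052-55591351, minus strand: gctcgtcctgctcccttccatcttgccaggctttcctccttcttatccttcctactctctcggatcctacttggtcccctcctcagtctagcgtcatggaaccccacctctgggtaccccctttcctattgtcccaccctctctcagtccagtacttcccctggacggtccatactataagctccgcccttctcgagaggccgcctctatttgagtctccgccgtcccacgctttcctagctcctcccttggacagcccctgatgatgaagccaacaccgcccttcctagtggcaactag
Psmd4, chr3:95042565-95042864, minus strand: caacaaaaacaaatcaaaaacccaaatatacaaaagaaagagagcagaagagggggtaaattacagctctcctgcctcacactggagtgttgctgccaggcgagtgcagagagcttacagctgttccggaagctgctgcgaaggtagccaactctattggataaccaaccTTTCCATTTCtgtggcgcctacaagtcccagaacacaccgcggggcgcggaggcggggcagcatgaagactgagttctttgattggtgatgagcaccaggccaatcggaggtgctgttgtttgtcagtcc
Psmb5, chr14:54617946-54618245, minus strand: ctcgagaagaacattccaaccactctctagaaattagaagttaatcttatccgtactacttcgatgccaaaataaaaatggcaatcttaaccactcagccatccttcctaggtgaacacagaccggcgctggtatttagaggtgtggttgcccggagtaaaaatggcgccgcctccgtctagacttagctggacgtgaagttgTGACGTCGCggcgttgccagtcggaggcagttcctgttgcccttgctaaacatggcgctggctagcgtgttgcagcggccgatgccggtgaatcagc
The match in Psme1 begins 9 bases after the first transcribed base, that in Psmd4 begins 80 bases before it, and that in Psmb5 begins 47 bases before it.

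The interferon-stimulated response element matched 5 of the 39 windows (12.8%), against 3.99% of the windows of all 27025 genes. These 5 belong to Psme1, Psmd4, Psmd9, Psmb3 and Psmg4. Psme1 and Psmd4 rose in siPAK4, while Psmd9, Psmb3 and Psmg4 did not pass the test (log2 differences 0.09, 0.05 and 0.22). The windows of Psme2, Psma6 and Psmd10, which also rose, did not hold the element. Among 17 type I interferon response genes with a window, 10 held it (58.8%), while the windows of Psmb8, Psmb9 and Psmb10 held 0. The antioxidant response core matched 6 proteasome windows (15.4%), against 14% of all windows. These were Psmb5, Psmb6, Psmd9, Psme4, Psmd12 and Psmc6. The gamma-activated site TTCNNNGAA matched 2 (5.13%), against 9.55% of all windows, and CCAAT matched 14 (35.9%), against 41.1%. A match describes letters in the window, not a bound site.

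Most proteasome genes did not pass the test between the groups, and 5 rose in siPAK4 cells: the activator pair Psme1 and Psme2, the alpha ring subunit Psma6, the ubiquitin receptor Psmd4 and the assembly chaperone Psmd10. Their increases ranged from 18.7% (Psmd4) to 31.3% (Psme1). In bulk RNA, fewer cells of a type and less RNA per cell cannot be told apart. None fell, and 41 did not pass the threshold (edgeR's quasi-likelihood test, Benjamini-Hochberg adjusted p under 0.05 over all 17975 tested genes). The called share was 10.9%, against 26.9% of all tested genes. By direction, 12.4% of all tested genes were higher and 14.5% lower, so the share of proteasome genes that rose was near the background. The median log2 fold change was 0.06 over the 46 genes and 0.01 over all tested genes, and 32 of the 46 lay above 0. The 95% interval of the fold change lay within 1.5-fold in either direction for 45 of 46 genes and within 1.25-fold for 34 of 46. Over all tested genes these numbers were 10610 and 5511 of 17975. Proteasome genes were measured with a median standard error of 0.065 on the log2 scale, against 0.10 over all tested genes. The unadjusted p was under 0.05 for 10 of the 46, against 6837 of all 17975 tested genes (38%).

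**Figure D1:**
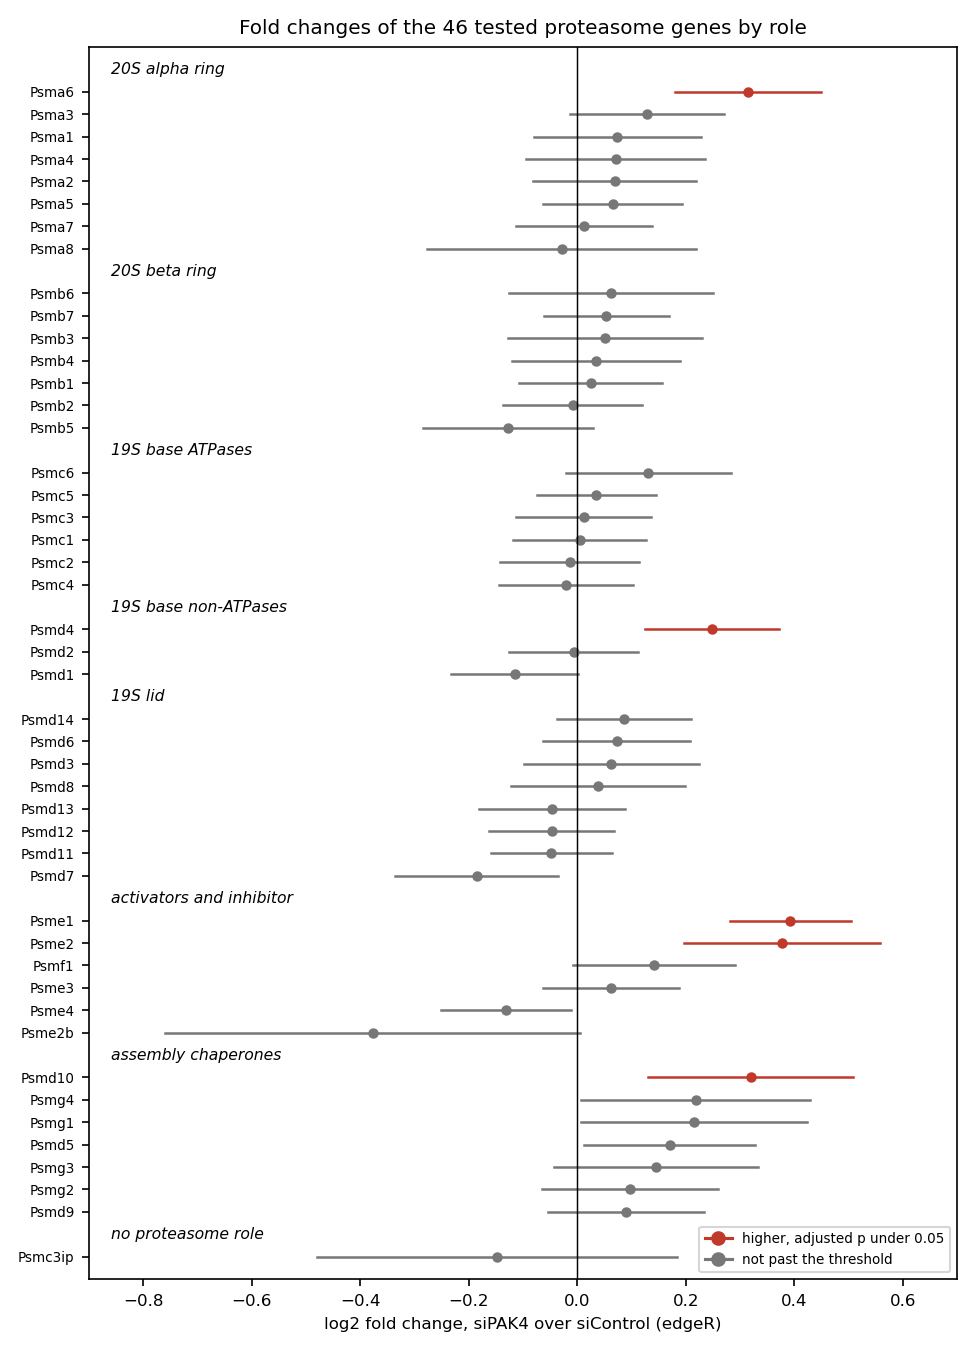
Log2 fold change, siPAK4 over siControl, of the 46 tested proteasome genes grouped by role, with lines for the 95% interval from edgeR. The 5 red genes passed the adjusted threshold, all to the right of 0, and the grey intervals of Psmb5, Psmb6 and Psmb7 cross 0.

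The 2 genes of the 11S activator, which opens the gate of the 20S core to peptides, had the largest increases. Psme1 (NCBI gene 19186, mm10 chromosome 14, 55578494 to 55581527) had 93.2, 90.8, 96.4 and 91.6 CPM in siPAK4 libraries, against 73.9, 71.0, 67.1 and 71.4 CPM in siControl libraries, where CPM is the read count scaled to the library's TMM-adjusted total. Every siPAK4 library lay above every siControl library, and the gap was wider than the range within either group. The log2 fold change of Psme1 was 0.39 (standard error 0.051, adjusted p = 0.00019) by edgeR's quasi-likelihood test. Psme2 (NCBI gene 19188, mm10 chromosome 14, 55587440 to 55591101) had 91.4, 96.9, 121 and 95.02 CPM in siPAK4 libraries, against 79.0, 74.0, 77.3 and 81.1 CPM in siControl libraries. The groups did not overlap, and siPAK4 replicate 3 stood above the other libraries. The log2 fold change of Psme2 was 0.38 (standard error 0.083, adjusted p = 0.0058) by the same test, and it was 0.28 without that library, the lowest value over the alternatives. Both genes kept their call in all 18 alternatives. They lie on opposite strands and converge, with 5912 bases between them. Of the 50-base stretches of Psme2 transcripts, 28.3% also occur in transcripts of Psme2b, so reads may be shared.

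Psme2b, whose transcripts share 68.7% of their 50-base stretches with Psme2, had 103, 151, 166 and 120.0 counts in siPAK4 libraries, against 201, 165, 171 and 137 counts in siControl libraries. These low counts overlapped between the groups, and the log2 difference of -0.38 did not pass the test (adjusted p = 0.14). Its separation from Psme2 in the deposited counts is uncertain.

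The other activators and the inhibitor did not pass the test. Psme3, which forms the nuclear PA28-gamma activator, had 49.5, 48.4, 49.3 and 51.1 CPM in siPAK4 libraries, against 49.4, 47.5, 49.4 and 43.7 CPM in siControl libraries. The groups overlapped, and the log2 difference was 0.06 (95% interval -0.06 to 0.19, adjusted p = 0.48). Psme4, the PA200 activator linked to histone degradation, had 257, 261, 261 and 274 CPM in siPAK4 libraries, against 292, 277, 309 and 276 CPM in siControl libraries. Its groups did not overlap, with siPAK4 lower, but the log2 difference of -0.13 missed the threshold (adjusted p = 0.097). Psmf1, which encodes the PI31 regulator, had 23.1, 23.0, 22.7 and 23.5 CPM in siPAK4 libraries, against 20.04, 19.8, 23.4 and 20.4 CPM in siControl libraries. SiControl replicate 3 lay among the siPAK4 libraries while the other siControl libraries lay below them. The log2 difference of Psmf1 was 0.14 (95% interval -0.01 to 0.29, adjusted p = 0.15). It passed without siControl replicate 3 (0.20, adjusted p = 0.047 by edgeR's quasi-likelihood test) and with library totals alone (0.23, adjusted p = 0.021), and its adjusted p reached 0.33 over the alternatives.

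**Figure D2:**
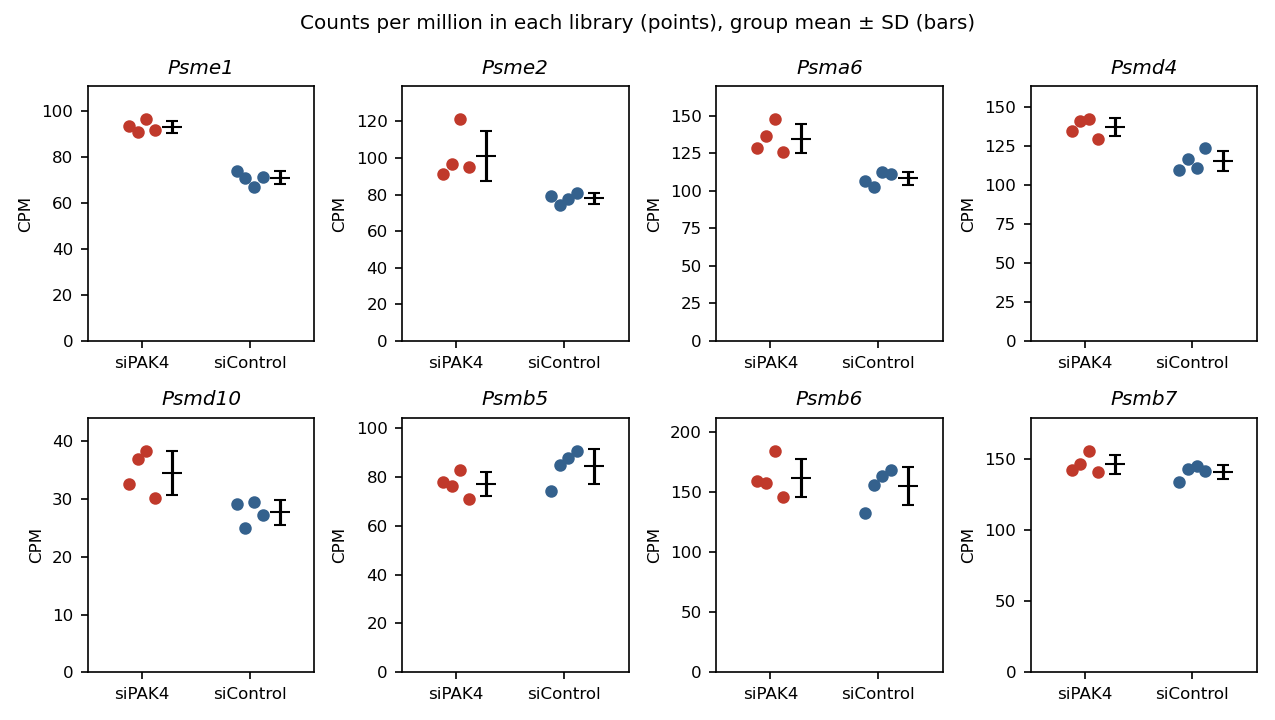
CPM on the TMM-scaled library size for 8 proteasome genes in each of the 4 siPAK4 and 4 siControl libraries (points), with the group mean and SD (bars), each axis starting at 0. Psme1, Psme2, Psma6, Psmd4 and Psmd10 separate the groups, while Psmb5, Psmb6 and Psmb7 do not.

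Among the 8 alpha ring genes, 1 rose and 7 did not pass, with a median log2 fold change of 0.07. Psma6 (NCBI gene 26443, mm10 chromosome 12, 55384222 to 55418459) had 128, 136, 148 and 126 CPM in siPAK4 libraries, against 107, 102, 113 and 111 CPM in siControl libraries. All siPAK4 libraries were above all siControl libraries, with siPAK4 replicate 3 the highest. The log2 fold change of Psma6 was 0.32 (standard error 0.062, adjusted p = 0.0029) by edgeR's quasi-likelihood test, and it kept its call in all 18 alternatives. The other 6 ubiquitous alpha genes lay between 0.01 (Psma7) and 0.13 (Psma3, adjusted p = 0.17). Psma8, the alpha subunit of the testis proteasome, was far below them per gene length, at 6.67 ± 0.775 TPM in siPAK4 libraries and 6.65 ± 0.651 TPM in siControl libraries (SD, n = 4 each), and its log2 difference was -0.03 (95% interval -0.28 to 0.22, adjusted p = 0.89).

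None of the 7 tested beta ring genes passed the test, and their median log2 fold change was 0.03. Psmb5 (NCBI gene 19173, mm10 chromosome 14, 54614120 to 54617995), target of the inhibitor bortezomib, had 78.0, 76.4, 83.0 and 71.0 CPM in siPAK4 libraries, against 74.0, 84.8, 87.7 and 90.6 CPM in siControl libraries. The groups overlapped, and siControl replicate 1 lay below 3 of the 4 siPAK4 libraries. The log2 difference of Psmb5 was -0.13 (95% interval -0.29 to 0.03, adjusted p = 0.22). Transcripts of Psmb5 share 46.8% of their 50-base stretches with the gene Gm3375, so its reads may be split. Over 10% of such stretches also occurred in another gene for 9 of the 47 genes, among them Psma5 (49.1%) but not Psma6 (0%) or Psme1 (5.47%).

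Psmb6, the caspase-like subunit, had 159.6, 157, 185 and 146 CPM in siPAK4 libraries, against 133, 156, 163 and 169 CPM in siControl libraries. The groups overlapped, with siControl replicate 1 lowest and siPAK4 replicate 3 highest, and the log2 difference of Psmb6 was 0.06 (95% interval -0.13 to 0.25, adjusted p = 0.65).

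The trypsin-like Psmb7 had 142, 146, 156 and 141 CPM in siPAK4 libraries, against 134, 143, 145 and 141 CPM in siControl libraries. The groups overlapped, and the log2 difference of Psmb7 was 0.05 (95% interval -0.06 to 0.17, adjusted p = 0.50). The structural genes Psmb1, Psmb2, Psmb3 and Psmb4 had log2 differences between -0.01 (Psmb2) and 0.05 (Psmb3). Psmb11, the beta subunit of thymic cortical epithelium, had 0 counts in the 4 siPAK4 libraries, against 0, 1, 1 and 0 counts in the siControl libraries, and was not tested.

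The 14 standard 20S genes spanned a narrow range of levels per gene length. Their mean levels were 195 to 410 TPM (the deposited unit that divides by gene length) in siPAK4 libraries and 207 to 380 TPM in siControl libraries, with Psmb5 lowest and Psma2 highest in both.

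None of the 6 ATPase genes passed the test, and their median log2 fold change was 0.01. Psmc2, which encodes the Rpt1 ATPase, had 84.7, 82.8, 85.8 and 94.3 CPM in siPAK4 libraries, against 91.6, 90.6, 85.1 and 83.7 CPM in siControl libraries. The siControl range lay inside the siPAK4 range, and the log2 difference of Psmc2 was -0.01 (95% interval -0.14 to 0.11, adjusted p = 0.89). The others ran from -0.02 (Psmc4) to 0.13 (Psmc6, adjusted p = 0.19). Per gene length the ATPases had mean levels over all 8 libraries between 128 TPM (Psmc2) and 242 TPM (Psmc3).

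Of the 3 non-ATPase genes of the base, 1 rose. Psmd4 (NCBI gene 19185, mm10 chromosome 3, 95032688 to 95042614), the Rpn10 ubiquitin receptor at the hinge of base and lid, had 135, 141, 142 and 129 CPM in siPAK4 libraries, against 109.6, 117, 111 and 124 CPM in siControl libraries. The siPAK4 libraries lay above all siControl libraries, and siControl replicate 4 came closest. The log2 fold change of Psmd4 was 0.25 (standard error 0.057, adjusted p = 0.0072) by edgeR's quasi-likelihood test, and its call was kept in all 18 alternatives. The scaffolds beside it did not pass: Psmd1 had a log2 difference of -0.12 (95% interval -0.23 to 0.00, adjusted p = 0.14), and Psmd2 one of -0.01 (95% interval -0.13 to 0.11, adjusted p = 0.95).

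None of the 8 lid genes passed the test, and their median log2 fold change was -0.0044. Psmd14, the deubiquitinase that cuts the ubiquitin chain from the substrate, had 123, 123, 140.1 and 129 CPM in siPAK4 libraries, against 121, 117, 126 and 122 CPM in siControl libraries. The groups overlapped, and the log2 difference of Psmd14 was 0.09 (95% interval -0.04 to 0.21, adjusted p = 0.30). Psmd7, the partner with which Psmd14 forms its active dimer, had 58.2, 55.8, 53.3 and 54.6 CPM in siPAK4 libraries, against 70.7, 64.5, 58.2 and 58.8 CPM in siControl libraries. The groups did not overlap, with siPAK4 lower, but siPAK4 replicate 1 and siControl replicate 3 all but met, and the log2 difference of -0.19 missed the threshold (adjusted p = 0.067 by edgeR's quasi-likelihood test). Psmd8 had the highest level per gene length of all 47 genes, at 489 ± 38.8 TPM in siPAK4 libraries and 463 ± 17.0 TPM in siControl libraries (SD, n = 4 each). The log2 differences of the lid genes other than Psmd7 lay between -0.05 (Psmd11) and 0.09 (Psmd14).

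All 7 assembly chaperones had a log2 fold change above 0, with a median of 0.17, but 1 of the 7 passed the test. Psmd10 (NCBI gene 53380, mm10 chromosome X, 140948425 to 140956711), which encodes gankyrin, a chaperone of the ATPase ring, had 32.6, 36.9, 38.3 and 30.1 CPM in siPAK4 libraries, against 29.1, 24.9, 29.4 and 27.2 CPM in siControl libraries. The groups did not overlap, though siPAK4 replicate 4 and siControl replicate 3 were close. The log2 fold change of Psmd10 was 0.32 (standard error 0.087, adjusted p = 0.017) by edgeR's quasi-likelihood test. This call was lost without siPAK4 replicate 2 (0.29, adjusted p = 0.060) and without siControl replicate 2 (0.27, adjusted p = 0.061), and over all alternatives the adjusted p of Psmd10 ran from 0.0039 to 0.061.

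Psmg1, which with Psmg2 forms a heterodimer that starts alpha ring assembly, had 14.6, 14.1, 18.1 and 14.6 CPM in siPAK4 libraries, against 12.3, 13.7, 12.5 and 14.4 CPM in siControl libraries. SiPAK4 replicate 2 lay below siControl replicate 4 and siPAK4 replicate 3 stood above the rest. The log2 difference of Psmg1 was 0.21 (95% interval 0.01 to 0.42, adjusted p = 0.12). Its partner Psmg2 had a log2 difference of 0.10 (95% interval -0.07 to 0.26, adjusted p = 0.38). The second such dimer is made of Psmg3, with a log2 difference of 0.14 (adjusted p = 0.24), and Psmg4, with one of 0.22 (adjusted p = 0.12). Of the ATPase ring chaperones beside Psmd10, Psmd5 had a log2 difference of 0.17 (adjusted p = 0.11) and Psmd9 one of 0.09 (adjusted p = 0.35). Psmc3ip, the recombination cofactor with no proteasome role, had a log2 difference of -0.15 (95% interval -0.48 to 0.18, adjusted p = 0.52).

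**Figure D3:**
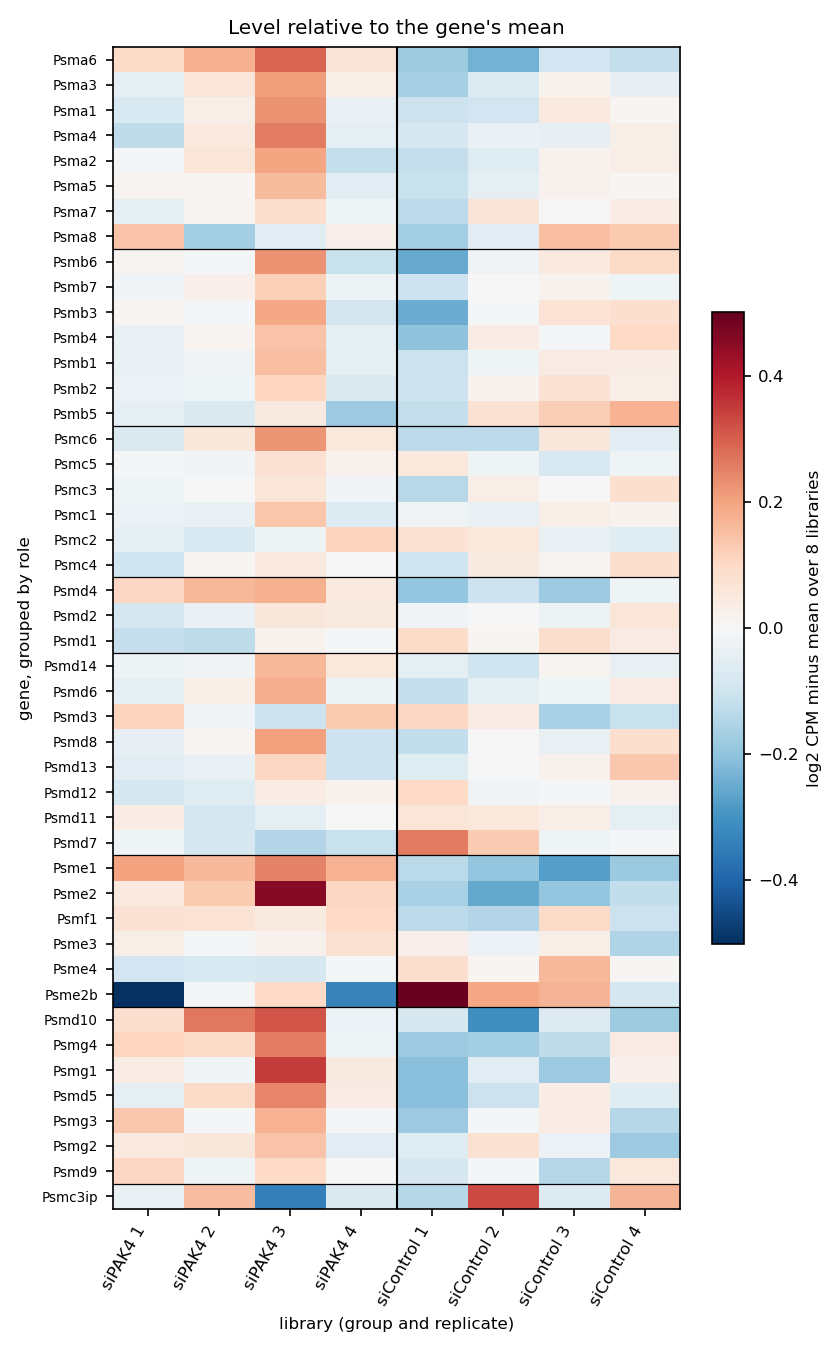
Log2 CPM of each tested proteasome gene minus its mean over the 8 libraries, with genes grouped by role down the page and libraries across it. Psme1, Psme2, Psma6 and Psmd4 are above their mean in all 4 siPAK4 libraries, and siPAK4 replicate 3 is the warmest column.

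In the levels by library, 1 siPAK4 and 1 siControl library stood out over the whole set of genes. SiPAK4 replicate 3 had the highest CPM of the 8 libraries for 28 of the 46 tested genes, against 20.2% of all tested genes. SiControl replicate 1 had the lowest for 21 of the 46, against 12.4% of all tested genes. Without siPAK4 replicate 3, the median log2 fold change of the 46 genes was -0.0016, with 5 higher (13.7% of all tested genes) and 1 lower (16.5% of all). The lower one was Psmd1 (-0.14, adjusted p = 0.037 by edgeR's quasi-likelihood test), whose adjusted p reached 0.79 over the alternatives. Groups that did not overlap were seen for 7 genes, the 5 that rose and Psmd7 and Psme4, which were lower in siPAK4, against 28.8% of all tested genes.

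Summed over the 47 genes, the deposited level was 8683, 8983, 8644 and 7973 TPM in siPAK4 libraries, against 7760, 7962, 8125 and 7923 TPM in siControl libraries. The siPAK4 sums were higher in 3 of 4 libraries than any siControl sum, and siPAK4 replicate 4 fell inside the siControl range. The means were 8571 ± 426 TPM in siPAK4 and 7942 ± 149.96 TPM in siControl (SD, n = 4 each), a difference of 7.91% of the siControl mean. With deposited FPKM, which is scaled to depth and gene length but not to a fixed total, the difference was 12.1%. With TMM-scaled counts, the scale of the test, the difference was 3.04%, and the sums overlapped (5181 to 5781 CPM in siPAK4, against 5031 to 5354 CPM in siControl). In deposited TPM the groups were apart for the activators and inhibitor (575 to 626 TPM in siPAK4, against 478 to 520 TPM in siControl) and for the assembly chaperones (278 to 324 TPM in siPAK4, against 256 to 273 TPM in siControl). The sums of the alpha ring overlapped (1981 to 2291 TPM in siPAK4, against 1897 to 2015 TPM in siControl), as did those of the beta ring (1963 to 2258 TPM in siPAK4, against 1900.1 to 2156 TPM in siControl). The non-ATPases of the base were apart (684 to 740.1 TPM in siPAK4, against 659 to 673 TPM in siControl), while the ATPases (1174 to 1277 TPM in siPAK4, against 1151 to 1185 TPM in siControl) and the lid (1310.1 to 1460.4 TPM in siPAK4, against 1336 to 1349 TPM in siControl) overlapped. In CPM the assembly chaperones stayed apart (196 to 229 CPM in siPAK4, against 175 to 191 CPM in siControl). In CPM the activators and inhibitor overlapped (516 to 553 CPM in siPAK4, against 492 to 529 CPM in siControl), as did the non-ATPases of the base (768 to 839 CPM in siPAK4, against 794 to 826 CPM in siControl). The count of genes that rose depended on the scaling. It was 5 with TMM-scaled counts, 9 with deposited TPM (11.2% of all tested genes higher), 10 with deposited FPKM (20.1% of all) and 12 with library totals alone (21.6% of all). The median log2 fold change of all tested genes was 0.09 with library totals alone and 0.05 with FPKM (pseudocount 1).

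The subunits of the immunoproteasome rose alongside Psme1 and Psme2. Psmb8 (NCBI gene 16913, mm10 chromosome 17, 34198195 to 34201454) had 112, 113, 125 and 97.9 CPM in siPAK4 libraries, against 81.7, 86.1, 84.2 and 81.8 CPM in siControl libraries. The groups did not overlap, and the log2 fold change of Psmb8 was 0.42 (standard error 0.070, adjusted p = 0.00094) by edgeR's quasi-likelihood test. Psmb9 had a log2 fold change of 0.49 (standard error 0.094, adjusted p = 0.0025) and Psmb10 one of 0.41 (standard error 0.069, adjusted p = 0.0012) by the same test. These 3 genes are the whole list of inducible catalytic subunits, and their median log2 fold change was 0.42. Of all tested genes, 12.4% were higher.

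Ratios within a library do not depend on how libraries are scaled to each other. These 5 pairs were chosen after the fold changes had been seen, so their ratios are given as a description, with no test. The ratio of Psmb8 to Psmb5, the inducible over the standard chymotrypsin-like subunit, was 1.02, 1.05, 1.08 and 0.982 in siPAK4 libraries, against 0.787, 0.723, 0.684 and 0.643 in siControl libraries, in deposited TPM. Psmb5 transcripts share 46.8% of their 50-base stretches with Gm3375, so the height of this ratio is uncertain. The log2 difference of Psmb5 itself, -0.13, did not pass the test and also enters the ratio. The ratio of Psmb9 to Psmb6 was 0.117 to 0.153 in siPAK4 libraries, against 0.0855 to 0.111 in siControl libraries. That of Psmb10 to Psmb7 was 0.226 to 0.248 in siPAK4 libraries, against 0.176 to 0.193 in siControl libraries. For all 3 pairs the siPAK4 libraries lay above the siControl libraries, by a mean log2 difference of 0.55 for Psmb8 over Psmb5, 0.47 for Psmb9 over Psmb6 and 0.35 for Psmb10 over Psmb7. Between activators, the ratio of Psme1 to Psme3 was 4.90 to 5.35 in siPAK4 libraries, against 3.73 to 4.46 in siControl libraries. The ratio of Psme2 to Psme3 was 5.524 to 7.33 in siPAK4 libraries, against 4.65 to 5.522 in siControl libraries, so these groups all but touched. With counts in place of TPM, the groups stayed apart for 4 of the 5 ratios and overlapped for Psme2 over Psme3.

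**Figure D4:**
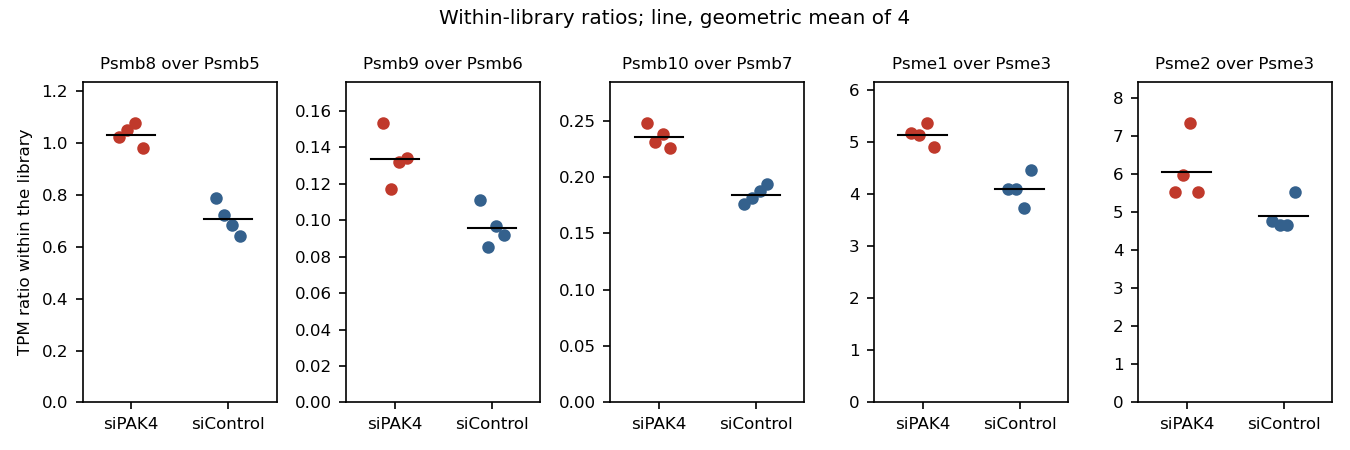
Ratio of 2 genes' deposited TPM within each library (points), with a line at the geometric mean of each group and each axis starting at 0. In all 5 panels the 4 siPAK4 points lie above the 4 siControl points.

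Of 10 other proteasome components and assembly genes, 4 rose, 0 fell and 6 did not pass, with a median log2 fold change of 0.12. The background was 12.4% of all tested genes higher and 14.5% lower. This list and those below were chosen with earlier results of these data known. Akirin2, which carries proteasomes into the nucleus, rose by 0.33 on the log2 scale (SE 0.063, adjusted p = 0.0024 by edgeR's quasi-likelihood test). The Rpn13 ubiquitin receptor Adrm1 rose by 0.26 (adjusted p = 0.0050), the proteasome-binding protein Zfand5 by 0.24 (adjusted p = 0.010) and the proteasome-associated ubiquitin ligase Ube3c by 0.16 (adjusted p = 0.036). The call of Ube3c was lost in each fit without 1 of siPAK4 replicates 1, 2 and 4 or siControl replicates 1, 2 and 4, with log2 fold changes of 0.13 to 0.16 and adjusted p of 0.056 to 0.11. Pomp, the chaperone of the beta ring, had 82.9, 85.1, 96.0 and 83.2 CPM in siPAK4 libraries, against 81.3, 83.2, 79.2 and 84.1 CPM in siControl libraries. These overlapped, and the log2 difference of Pomp was 0.08 (95% interval -0.05 to 0.21, adjusted p = 0.34).

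Of 9 genes of the Nfe2l1 axis, 4 rose, 0 fell and 5 did not pass, with a median of 0.06. The background was again 12.4% of all tested genes higher and 14.5% lower. Nfe2l1 itself had 248, 239, 217 and 249.9 CPM in siPAK4 libraries, against 276, 240.0, 231 and 230.2 CPM in siControl libraries. The groups overlapped, and the log2 difference of Nfe2l1 was -0.04 (95% interval -0.19 to 0.12, adjusted p = 0.76). Of the 3 small Maf partners, Mafk rose by 0.29 (adjusted p = 0.0061) and Maff by 0.29 (adjusted p = 0.0066) on the log2 scale. Mafg, named after its value was seen, did not pass, with a log2 difference of 0.06 (95% interval -0.06 to 0.18, adjusted p = 0.45). Keap1, the adaptor that marks NRF2 for degradation, rose by 0.19 (adjusted p = 0.013), and Ngly1, the glycanase that activates Nfe2l1, by 0.26 (adjusted p = 0.030), all by edgeR's quasi-likelihood test. The call of Ngly1 was lost without any 1 of the 4 siControl replicates (0.24 to 0.27, adjusted p of 0.053 to 0.080).

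Ubb, a polyubiquitin gene, had 747, 689, 777 and 816 CPM in siPAK4 libraries, against 656, 635, 577 and 643 CPM in siControl libraries. The groups did not overlap, and the log2 fold change of Ubb was 0.27 (standard error 0.068, adjusted p = 0.012) by edgeR's quasi-likelihood test.

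Of 11 genes for ubiquitin shuttles and the VCP segregase, 3 rose, 2 fell and 6 did not pass, with a median of -0.05. Of all tested genes, 12.4% rose and 14.5% fell. Vcp, which pulls tagged proteins from membranes and complexes, had 649, 643, 634 and 669 CPM in siPAK4 libraries, against 791, 776, 774 and 737 CPM in siControl libraries. Every siPAK4 library was below every siControl library, and the log2 fold change of Vcp was -0.25 (standard error 0.053, adjusted p = 0.0052) by edgeR's quasi-likelihood test. Its cofactor Nsfl1c, named after its value was seen as the other gene that fell, had a log2 fold change of -0.17 (adjusted p = 0.040). Faf1, a VCP-binding adaptor, rose by 0.24 (adjusted p = 0.016), and the shuttles Ubqln4 and Rad23b rose by 0.22 (adjusted p = 0.026) and 0.19 (adjusted p = 0.027). The calls of these 4 genes depended on single libraries. Nsfl1c did not pass without any 1 of siPAK4 replicates 2 and 4 or siControl replicates 1, 2 and 4 (-0.20 to -0.14, adjusted p of 0.050 to 0.13), nor with no filter beyond 1 read (-0.18, adjusted p = 0.056), library totals (-0.09, adjusted p = 0.26), FPKM (-0.08, adjusted p of 0.28 to 0.29) or TPM (-0.14, adjusted p = 0.20). Faf1 did not pass without siControl replicate 2 (0.21, adjusted p = 0.056). Ubqln4 did not pass without any 1 of siPAK4 replicates 1, 2 and 4 or siControl replicates 3 and 4 (0.18 to 0.22, adjusted p of 0.053 to 0.083), nor with TPM (0.25, adjusted p = 0.083). Rad23b did not pass without any 1 of siPAK4 replicates 2 and 4 or siControl replicates 1, 2 and 3 (0.17 to 0.20, adjusted p of 0.058 to 0.087).

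Pak4 had 7.72, 5.70, 5.17 and 6.69 CPM in siPAK4 libraries, against 18.6, 17.7, 16.4 and 16.2 CPM in siControl libraries, a log2 fold change of -1.44 (standard error 0.12, adjusted p = 9.4e-06) by edgeR's quasi-likelihood test. All 24 type I interferon response genes were higher in siPAK4, against 12.4% of all tested genes, with a median log2 fold change of 1.65. Their summed levels were 2452 to 2665 CPM in siPAK4 libraries, against 866 to 1238 CPM in siControl libraries. The part of this response in the values of Psme1 and Psme2 was not tested. Of 10 stellate cell markers, Lrat, which esterifies retinol, had 11, 11, 22 and 7 counts in siPAK4 libraries, against 2, 4, 0 and 0 in siControl libraries. It was thus close to 0 in these cells labelled as stellate. Among the other 9, 5 fell and 4 did not pass, with summed levels of 722 to 855 CPM in siPAK4 libraries, against 916 to 1127 CPM in siControl libraries. Of 12 tested macrophage markers, 8 fell and 4 did not pass (5097 to 8261 CPM in siPAK4 libraries, against 9132 to 10588 CPM in siControl libraries). Of 11 endothelial markers, 3 rose and 6 fell (3663 to 5345 CPM in siPAK4 libraries, against 6170.0 to 6384 CPM in siControl libraries). Of 8 mesothelial and portal fibroblast markers, 6 fell (320.3 to 429 CPM in siPAK4 libraries, against 836 to 1060.1 CPM in siControl libraries). Of 10 hepatocyte markers, 5 had enough reads and 3 of those rose (6.999 to 17.4 CPM in siPAK4 libraries, against 1.66 to 3.27 CPM in siControl libraries). Of 8 lymphocyte markers, 3 had enough reads and 1 fell (2.49 to 3.49 CPM in siPAK4 libraries, against 3.85 to 6.93 CPM in siControl libraries). Over all tested genes, 12.4% were higher and 14.5% lower. In every library the macrophage and endothelial sums were above the stellate sum. The lists differ in length and in the levels of their genes, so these sums do not give shares of cells. All 6 marker sums kept the groups apart, with the hepatocyte sum higher in siPAK4 and the other 5 lower. Single genes weighed heavily in them: Lyz2 averaged 4847 CPM in siPAK4 and 7811 CPM in siControl, and Fbln2 319 and 808 CPM. In the stellate sum, the collagen genes Col1a1 (122 and 328 CPM) and Col3a1 (96.8 and 207 CPM) were lower in siPAK4. Dcn (479 and 425 CPM), Reln and Hand2 averaged higher there without passing the test, so the lower stellate sum does not describe every marker in it. Among markers that did not pass were Adgre1 (log2 difference 0.14) and Cd68 (-0.04) of macrophages, and Dcn (0.17) of stellate cells. Of the mesothelial and portal fibroblast markers, Msln (-0.01) and Krt19 (-0.10) did not pass. These genes were named after their values were seen. The part of cell makeup in the proteasome values was not tested.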

How the data were processed

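The 8 libraries, 4 siPAK4 and 4 siControl, were grouped by the treatment named in the labels. The authors deposited 1 table with 3 units per library, for 45777 genes keyed by NCBI gene number. The read counts were used as deposited, with no normalization. Per the file headers the FPKM values deposited are scaled to depth and gene length, and the TPM values deposited to a fixed total as well. Per the submitters' processing notes, the tools were HISAT2 2.1.0, StringTie 2.1.3b, Bowtie2 2.3.4.1, bcl2fastq 2.20.0 and FastQC 0.11.7, with build mm10. How reads were counted, with which strand setting, and what was done with multiply matching reads is not given in the sources used here.

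Genes were filtered with filterByExpr of edgeR 4.0.16 (minimum count 10), which left 17975, scaled by TMM, and tested with edgeR's quasi-likelihood test with Benjamini-Hochberg adjustment over all of them (threshold 0.05). CPM was computed from the counts on the TMM-scaled library size. Standard errors were derived from the test statistic. Alternatives used DESeq2 1.42.0, limma 3.58.1 (voom, or log2 of FPKM or TPM plus a pseudocount of 1 or 0.1), other filters and scalings, a replicate block, and each library left out. The procedure was tested on simulated data.

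Same-numbered libraries were checked for pairing. Replicates of 1 group differed by more than sampling noise (chi-square 12.7 to 67.8 times its degrees of freedom). Each was counted as 1 sample, though this check cannot show that replicates came from separate animals or cultures. The proteasome genes, the gene lists and the markers were chosen with earlier results of these data known. Every proteasome gene could be named. Per-library values went to proteasome genes past the threshold and to a set of other proteasome genes whatever their test. Beyond these, they went to Nfe2l1, Pomp, Psmb8, Ubb, Vcp, Lrat and Pak4. Psmb9, Psmb10 and up to 4 genes a list with the smallest adjusted p were named with their fold changes. Promoters and gene positions came from RefSeq GRCm38.p6, and shared 50-base stretches from GENCODE transcripts of the same build. Some values of other genes are not reported here.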

Additional observations from a re-analysis of the deposited data

Results flagged for a closer look

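In 144 groups of 4 libraries examined for the named genes, 7 held 1 library far from the other 3, with a gap above the Dixon critical value. Chance alone sets aside about 1 group in 20, and 6 of the 7 concern siPAK4 replicate 3. In that library Psmg1, a chaperone of the alpha ring, had 18.1 CPM, while the other siPAK4 libraries had 14.1 to 14.6 CPM. Its level of Psmb1, a structural beta ring subunit, was 177 CPM, against 155 to 158 CPM in the others. Psmc1, a 19S ATPase, had 170.1 CPM there and 148 to 151 CPM in the others. Pomp, the beta ring chaperone, had 96.0 CPM there and 82.9 to 85.1 CPM in the others. Zfand5 had 202 CPM there and 185 to 187 CPM in the others, and Ngly1 had 42.6 CPM there and 34.0 to 34.7 CPM in the others. Psmf1, which encodes the PI31 regulator, was far from the others in siControl replicate 3, with 23.4 CPM, while the other siControl libraries had 19.8 to 20.4 CPM.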

How the results depend on the processing

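Psme1, Psme2, Psma6 and Psmd4 kept their direction and their call in all 18 alternatives, with adjusted p of at most 0.0013, 0.025, 0.014 and 0.029. Psmd10 kept its direction in all and its call in all but 2. The genes higher numbered 2227 with TMM scaling and 3875 with library totals, 3619 with FPKM and a pseudocount of 1 and 3616 with 0.1. The genes lower numbered 2605 and, with FPKM, 1712 and 1722. The proteasome genes higher numbered 5 with TMM, 12 with library totals (background 21.6% of genes higher), 10 with FPKM at either pseudocount (20.1%) and 9 with TPM (11.2%). Of the other components 4 passed with TMM and 7 with library totals. Of the shuttle and VCP genes 5 passed and, with TPM, 3. The summed level differed by 7.91% in TPM, 12.1% in FPKM and, in an alternative chosen after seeing the data, 3.04% with TMM-scaled counts.

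Leaving out each library in turn gave 3543 to 5494 genes called, 1599 to 2496 higher and 1944 to 2998 lower. It gave 4 to 6 proteasome genes higher, 0 to 1 lower, 2 to 5 shuttle and VCP genes called, 3 to 5 of the other components, 3 to 5 of the Nfe2l1 axis, and a summed level 6.18% to 10.4% higher.

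With the replicate number as a block, 6 proteasome genes were higher (11.4% of all genes), adding Psmd5 (adjusted p = 0.045), and 1 was lower (14.1% of all genes), Psmd7 (adjusted p = 0.048, against 0.067 without the block). Correlations of same-numbered deviations were 0.13, -0.05, 0.20 and -0.12. Of the 4 siPAK4 libraries, 1 correlated best with its own number. No clear pairing by number was seen, but with 4 libraries per group this check cannot exclude it.

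Values near 0 changed sign between scalings, none of them called. With library totals, FPKM at pseudocounts 1 and 0.1, and TPM, the log2 differences, all below 0 with TMM, were as follows. Psmc2 was 0.073, 0.091, 0.092 and 0.037. Psmd2 was 0.081, 0.085, 0.085 and 0.030. Psmc4 was 0.067, 0.073, 0.073 and 0.018. Psmb2 was 0.079, 0.12, 0.12 and 0.065. Psmd11 was 0.041, 0.13, 0.13 and 0.072. Psma8 was 0.060, 0.042, 0.056 and 0.0027. Nfe2l1 was 0.053, 0.073, 0.074 and 0.019. Psmd13 was 0.041, 0.046 and 0.047, and Psmd12 was 0.041, 0.045 and 0.046, with the first 3 scalings. Leaving out libraries in turn gave log2 ranges across 0. Psma4 ran from -0.010 to 0.12, Psma7 ran from -0.028 to 0.034 and Psma8 ran from -0.089 to 0.021. Psmb1 ran from -0.026 to 0.045, Psmb2 ran from -0.049 to 0.014 and Psmb3 ran from -0.019 to 0.089. Psmb4 ran from -0.025 to 0.072, Psmb6 ran from -0.0090 to 0.11 and Psmc1 ran from -0.045 to 0.026. Psmc2 ran from -0.057 to 0.0083, Psmc3 ran from -0.031 to 0.040 and Psmc4 ran from -0.057 to 0.0076. Psmd2 ran from -0.029 to 0.020, Psmd8 ran from -0.031 to 0.077 and Nfe2l1 ran from -0.064 to 0.028. The cause of these changes was not tested. At 55728583 to 61535063 counts per library, Psmb11 had 0 or 1 count per library and Psme2b had 103 to 201. Whether depth limited either gene was not tested.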
